A study of Sus scrofa with 6 samples.

Results

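Mucins at the cell surface, the proteins that build the brush border and the adhesion molecule EPCAM are the features by which an absorptive epithelium of the intestine is recognized. Here, 9 genes of this kind were followed in IPEC-J2 cells: VIL1, EZR, EPS8, MYO1A and CDHR5 of the brush border, the cell surface mucins MUC1, MUC13 and MUC20, and EPCAM. They were chosen by name from the 31908 gene IDs of the deposited table, 7 by the gene name given there and MUC1 and MUC20, whose names were blank, by the gene description. IPEC-J2 is a pig cell line of the jejunum. It was grown as 1 line in plastic wells, so no other cell type of the gut wall was added. The CON group was 3 libraries of cells given PBS, and the CDCA group was 3 libraries of cells given chenodeoxycholic acid, a primary bile acid, each for 24 h. The study called the libraries biological replicates, but neither the labels nor the methods said whether the 3 of a group came from separate cultures, so the p-values measure only the spread between libraries, which may be technical.

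The brush border is a carpet of microvilli on the apical face of the enterocyte. Each microvillus holds a bundle of actin filaments that villin (VIL1), plastin and espin tie together, that EPS8 caps at the tip, and that class I myosins such as MYO1A and the linker ezrin (EZR) join to the membrane. The protocadherins CDHR5 and CDHR2 bind each other between the tips of neighboring microvilli. MUC1, MUC13 and MUC20 are mucins that stay anchored in the apical membrane, in contrast to the secreted, gel-forming mucins of goblet cells such as MUC2. EPCAM is a membrane glycoprotein on the lateral face of most simple epithelia and is used as a general epithelial marker.

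The values are TPM, a share of the library's transcripts that is scaled for transcript length and can therefore be compared between genes. For each gene ID, the sum over its listed transcripts was used. No read counts came with the table, so the reads behind a value are unknown. The listed TPM of the 6 libraries added up to 351770 to 366073, whereas a complete library adds up to 1000000, so a low value can reflect either weak expression or transcripts outside the list. CDCA was compared with CON by limma on log2(TPM + 1) for the 8708 gene IDs with a mean of at least 1 TPM, with Benjamini-Hochberg adjustment (FDR). Below, "rose" and "fell" are used for an FDR under 0.05, and "called" for genes that in addition had a log2 fold change over 1 in size. Of all tested genes, 29.3% rose and 23.9% fell, and 3.51% were called higher and 3.90% lower. With totals computed without the mtDNA-encoded mRNAs, 221 genes were called higher and 485 lower, in place of 306 and 340. The share of these mRNAs in the listed TPM was 13.8% to 15.03% among the CON libraries and 2.90% to 3.45% under CDCA, and leaving them out shifted the median log2 fold change of all tested genes by -0.15, from 0.05 to -0.10. Under those totals 18.9% of all tested genes rose and 32.7% fell. With each library set to the same median ratio the shares were 24.3% and 28.4%, and with the listed TPM rescaled to 1000000 they were 26.2% and 19.2%. List counts under these scalings below are to be read against these shares. Such shares were not computed for the fits with a library left out, the replicate block or the highest transcript alone. List counts from those fits stand without a share.

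Of the 9 genes, EPCAM, MUC1 and EZR passed the filter on low values, so 3 were tested. EPCAM rose in CDCA, MUC1 fell, and EZR did not pass the test. None of the 9 genes was called by limma, and 2 of the 3 had an unadjusted p under 0.05, as did 2811 genes that were higher and 2323 that were lower among the 8708 tested. The other 6 genes lay below 1 TPM on average in these cells, including VIL1, the classic marker of the brush border. In CON, the order of the levels was EPCAM, MUC1 and EZR, whose library ranges did not overlap with each other or with any other of the 9 genes. VIL1 (0.21 to 0.64 TPM), EPS8 (0.04 to 0.49 TPM), MUC20 (0.12 to 0.27 TPM) and CDHR5 (0.05 to 0.22 TPM) followed by their means, and each of these ranges overlapped with the other 3, so their order was within the spread. MYO1A and MUC13 were at or next to 0 TPM in CON. In CDCA the order of the first 3 genes was the same, and MUC13 came next by its mean, with a range that overlapped with that of EPS8.

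**Figure D1:**
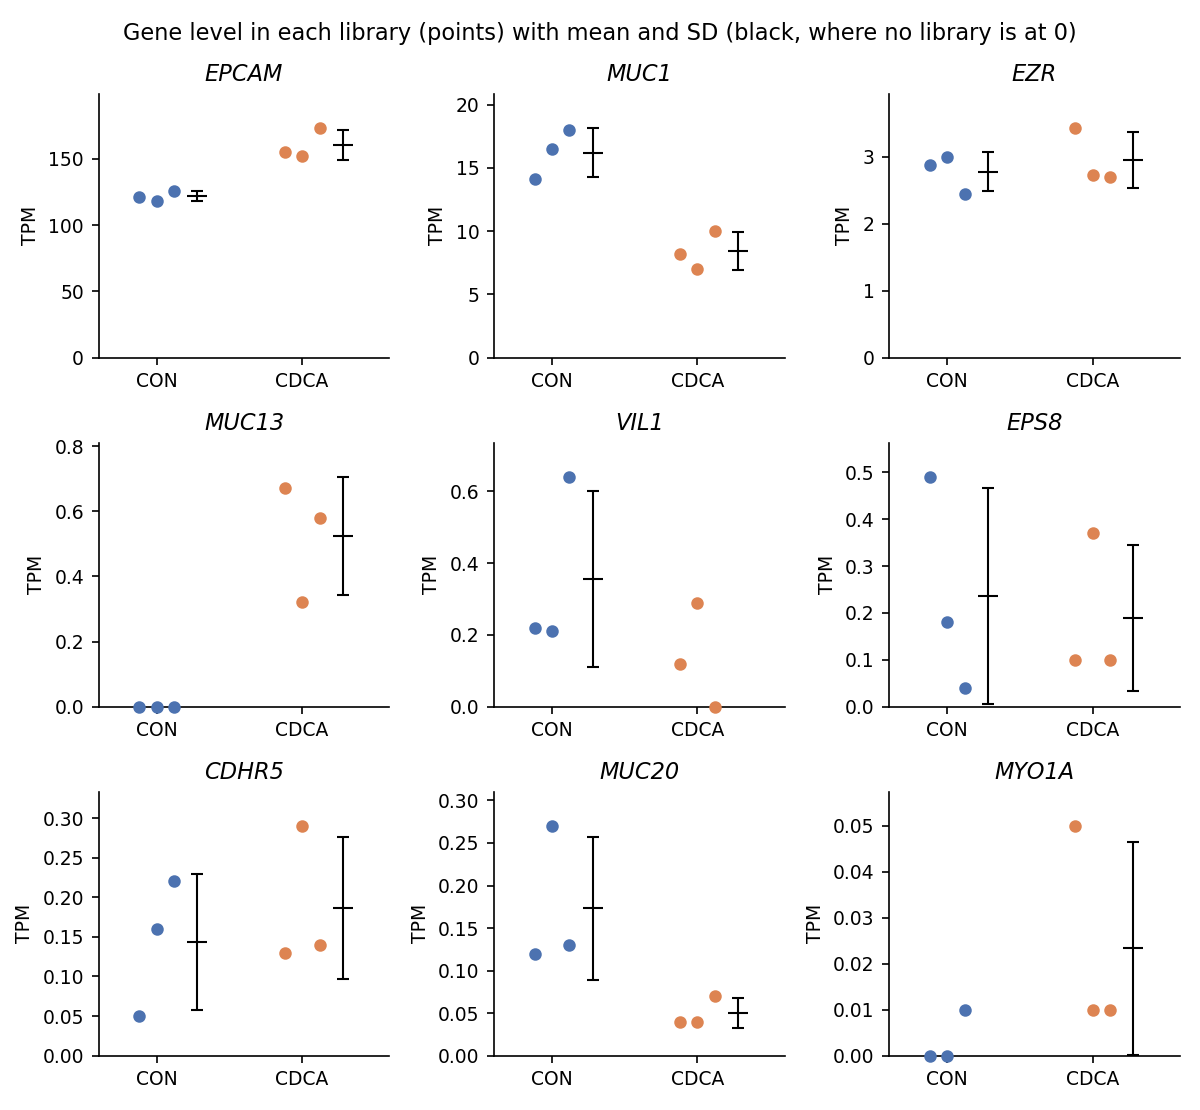
TPM of each of the 9 genes (vertical axes, linear, each from 0) in the 3 CON and 3 CDCA libraries (points), with the mean and SD in black where no library was at 0. The CON and CDCA points are apart for EPCAM, MUC1, MUC13 and MUC20, and they overlap for the other 5 genes. Of all 8708 tested genes, 29.3% rose and 23.9% fell, and the share with groups apart was not computed. Among gene IDs above 0 and under 1 TPM, CDCA lay above CON in 9.72% and below it in 5.92%.

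EPCAM (ENSSSCG00000008429) stood at 121, 118 and 126 TPM in the CON libraries, against 155, 152 and 173 TPM under CDCA. Every CDCA library lay above every CON library, and CDCA replicate 3 was the highest. The mean rose from 122 ± 3.74 TPM in CON to 160 ± 11.4 TPM in CDCA (SD, n = 3), a ratio of 1.31. The log2 fold change was 0.39 (SE 0.06, 95% interval 0.25 to 0.53, limma FDR 0.0015). With totals computed without the mtDNA-encoded mRNAs it was 0.22 (limma FDR 0.020), and relative to the median of all tested genes it was 0.34 under the deposited totals and 0.32 under the others. Among its 4 listed transcripts, the most abundant held 95.2% of the gene's TPM and went from 117 ± 2.17 to 152 ± 14.0 TPM (SD, n = 3). Of the minor transcripts, that of rank 4 went from 0.723 ± 0.178 to 1.77 ± 0.335 TPM (SD, n = 3), whereas those of ranks 2 and 3 overlapped between the groups.

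MUC1 (ENSSSCG00000006525), a signaling mucin with a heavily glycosylated extracellular domain, stood at 14.1, 16.5 and 18.0 TPM in the CON libraries, against 8.17, 7.04 and 10.03 TPM under CDCA. All CDCA libraries lay below all CON libraries. The mean fell from 16.2 ± 1.95 TPM in CON to 8.41 ± 1.51 TPM in CDCA (SD, n = 3), a ratio of 0.519. The log2 fold change was -0.88 (SE 0.14, 95% interval -1.20 to -0.55, limma FDR 0.0019), short of the limit for a call. With totals computed without the mtDNA-encoded mRNAs it was -1.05 (limma FDR 0.00084) and MUC1 was called lower; relative to the median of all tested genes the values were -0.92 and -0.94. Of 7 listed transcripts, 3 had values above 0. The transcripts of ranks 1 and 2 held 66.6% and 19.2% of the gene's TPM and were at 0.474 and 0.457 of their CON means in CDCA, with no overlap of the groups. The transcript of rank 3, with 14.2%, stood at 1.27, 2.06 and 2.21 TPM in the CON libraries, against 2.37, 0.78 and 1.82 TPM under CDCA, and its groups overlapped.

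**Figure D2:**
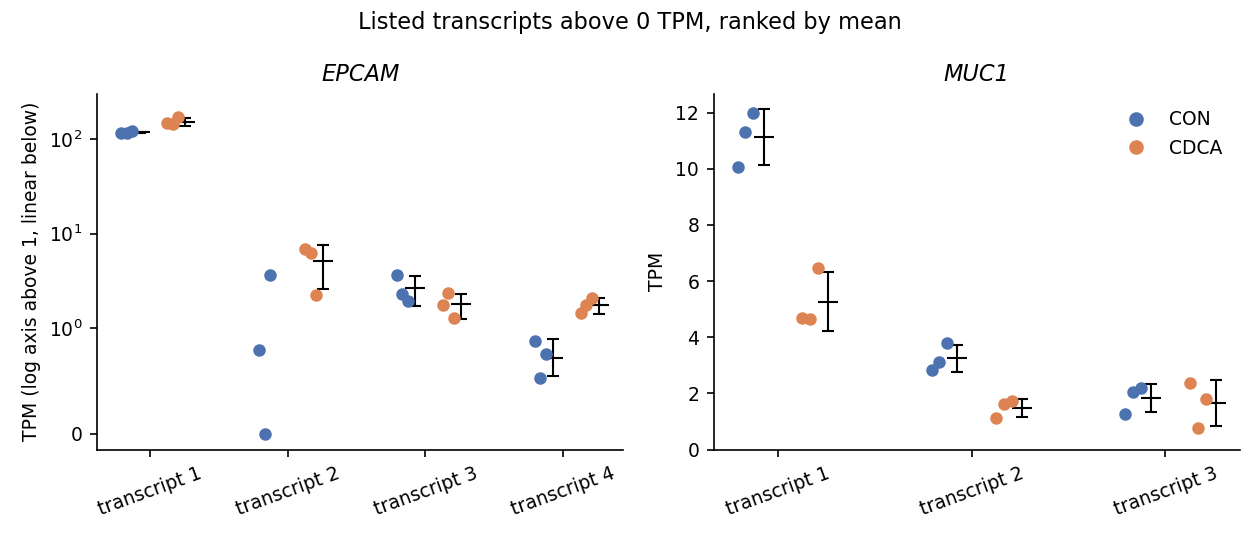
TPM of the listed transcripts of EPCAM (left, log axis above 1 TPM) and MUC1 (right, linear axis) that were above 0 in any library, in rank order of their mean, with a point per library and mean and SD in black where no library was at 0. The difference of EPCAM lies mostly in transcript 1, and that of MUC1 in transcripts 1 and 2.

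MUC13 (ENSSSCG00000011862), a mucin of the enterocyte apical membrane, was listed at 0 TPM in all 3 CON libraries, against 0.67, 0.32 and 0.58 TPM under CDCA. The gene had 1 listed transcript, and a value of 0 in the table may be a failed estimate, so no fold was computed. Its mean was too low for the test. With no filter on low values, the difference on the log2(TPM + 1) scale was 0.60 (SE 0.09, limma FDR 0.0055), in a fit of 22549 gene IDs of which 11.5% rose and 9.11% fell. Of the 13841 gene IDs above 0 and under 1 TPM, 0.845% were likewise at 0 in every CON library and above 0 in every CDCA library, and in 9.72% every CDCA library lay above every CON library.

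MUC20 (ENSSSCG00000011851) stood at 0.12, 0.27 and 0.13 TPM in the CON libraries, against 0.04, 0.04 and 0.07 TPM under CDCA. Its CDCA libraries all lay below its CON libraries, as was so for 5.92% of the gene IDs under 1 TPM. The difference did not pass the test with no filter on low values (-0.16 on the log2(TPM + 1) scale, SE 0.05, limma FDR 0.091). In the RefSeq annotation of assembly Sscrofa11.1 the gene before MUC20 is MUC4, a larger membrane mucin. MUC4 stood at 12.7, 18.8 and 18.5 TPM in the CON libraries, against 15.9, 10.7 and 12.7 TPM under CDCA, and these groups overlapped (log2 fold change -0.32, SE 0.19, 95% interval -0.77 to 0.12, limma FDR 0.19). In the fit without CON replicate 1, the FDR of MUC4 was under 0.05, at 0.043. The gel-forming mucins were at or next to 0: the highest single library value was 0.04 TPM for MUC2, 0.04 TPM for MUC5B, 0.02 TPM for MUC5AC and 0.01 TPM for MUC6, all 4 picked after their values were seen. In a list of 18 further mucins and mucin-like genes, 10 gene IDs were found by name and 2, MUC4 and CD164, were tested. CD164, a small sialomucin of endosomes and the cell surface, rose from 226 ± 8.72 to 292 ± 1.38 TPM (SD, n = 3, log2 fold change 0.37, SE 0.04, limma FDR 0.00029). The counts over this list were 1 risen and 0 fallen, or 1 and 1 of 3 with totals computed without the mtDNA-encoded mRNAs and with the listed TPM rescaled to 1000000. The added and fallen gene was MCAM, at 1.32 ± 0.407 and 0.577 ± 0.110 TPM in CON and CDCA (SD, n = 3). With totals computed without the mtDNA-encoded mRNAs, MCAM passed the filter only through its CON libraries, so that fall is a description.

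EZR (ENSSSCG00000004058), the linker between actin and the apical membrane, stood at 2.88, 3.00 and 2.45 TPM in the CON libraries, against 3.43, 2.73 and 2.70 TPM under CDCA. The groups overlapped. Its log2 fold change was 0.06 (SE 0.11, 95% interval -0.21 to 0.34, limma FDR 0.66), and the direction turned in 3 of 13 alternatives. Only 1 transcript of EZR was listed. Its relatives radixin and moesin, named here like the other relatives below after their values were seen, were more abundant. MSN rose from 117 ± 5.47 to 141 ± 2.78 TPM (SD, n = 3, log2 fold change 0.27, limma FDR 0.0025), but not with totals computed without the mtDNA-encoded mRNAs (0.09, limma FDR 0.14). RDX was at 49.1 ± 3.21 and 47.9 ± 2.11 TPM (SD, n = 3, log2 fold change -0.04, 95% interval -0.18 to 0.11, limma FDR 0.65). The direction of RDX turned in 3 of 13 alternatives, and its FDR was 0.034 with totals computed without the mtDNA-encoded mRNAs.

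The scaffold proteins that ezrin holds under the membrane were lower in CDCA. SLC9A3R1 (NHERF1) stood at 56.4, 61.1 and 66.4 TPM in the CON libraries, against 27.95, 26.2 and 29.7 TPM under CDCA, and was called lower (log2 fold change -1.11, SE 0.07, limma FDR 5.2e-05). SLC9A3R2 (NHERF2) stood at 8.94, 10.3 and 10.7 TPM in the CON libraries, against 5.85, 2.54 and 3.88 TPM under CDCA. It was called lower as well (log2 fold change -1.16, SE 0.23, limma FDR 0.0053), although without CDCA replicate 2 its log2 fold change was -0.92 and it was no longer called. In both genes the groups did not overlap.

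EPS8 (ENSSSCG00000000600), the actin capping and bundling protein of the microvillus tip, stood at 0.49, 0.18 and 0.04 TPM in the CON libraries, against 0.10, 0.37 and 0.10 TPM under CDCA, with overlapping groups. With no filter on low values its difference on the log2(TPM + 1) scale was -0.05 (SE 0.15, limma FDR 0.86). The EPS8-like genes carried most of the family's level. EPS8L2 stood at 92.0, 103 and 103 TPM in the CON libraries, against 69.6, 71.8 and 68.8 TPM under CDCA, and fell (log2 fold change -0.50, SE 0.05, limma FDR 0.00040). EPS8L3 stood at 26.6, 21.3 and 26.8 TPM in the CON libraries, against 10.4, 13.5 and 13.3 TPM under CDCA. It fell by 0.95 on the log2 scale (SE 0.13, limma FDR 0.00097), so near the limit for a call that 7 of 13 alternatives called it. EPS8L1 stayed under 1 TPM in every library.

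VIL1 (ENSSSCG00000016196) stood at 0.22, 0.21 and 0.64 TPM in the CON libraries, against 0.12, 0.29 and 0 TPM under CDCA. The CON library at 0.64 TPM was the highest of the 6, and the groups overlapped. With no filter on low values its difference was -0.25 on the log2(TPM + 1) scale (SE 0.15, limma FDR 0.34). The other bundling proteins of microvilli, plastin PLS1 and espin ESPN, did not exceed 0.15 and 0.46 TPM in any library. Fascin (FSCN1), which bundles actin in filopodia, was the most abundant of the bundlers looked at in both groups. It stood at 10.01, 11.4 and 10.6 TPM in the CON libraries, against 3.30, 2.80 and 3.01 TPM under CDCA, and was called lower (log2 fold change -1.53, SE 0.08, limma FDR 2.3e-05).

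MYO1A (ENSSSCG00000000413), the brush border myosin, stood at 0, 0 and 0.01 TPM in the CON libraries, against 0.05, 0.01 and 0.01 TPM under CDCA, so no library exceeded 0.05 TPM. MYO1D, another class I myosin of the brush border, was at 0 TPM in the CON libraries, against 0.17, 0.36 and 0 TPM under CDCA. The myosins of apical transport were expressed and went opposite ways. MYO5B, which carries recycling endosomes to the apical membrane, rose from 10.4 ± 0.132 to 15.8 ± 0.690 TPM (SD, n = 3, log2 fold change 0.57, SE 0.05, limma FDR 0.00022). MYO6, a motor of the base of microvilli and of endocytosis, fell from 26.5 ± 2.67 to 20.7 ± 1.83 TPM (SD, n = 3, log2 fold change -0.34, SE 0.09, limma FDR 0.019), with an FDR of 0.055 without CDCA replicate 2.

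CDHR5 (ENSSSCG00000012852) stood at 0.05, 0.16 and 0.22 TPM in the CON libraries, against 0.13, 0.29 and 0.14 TPM under CDCA, and its groups overlapped (0.05 on the log2(TPM + 1) scale with no filter, SE 0.08, limma FDR 0.69). Its binding partner across the gap, CDHR2, was higher, with 2.20, 2.34 and 2.13 TPM in the CON libraries against 2.99, 3.18 and 3.26 TPM under CDCA. CDHR2 rose (log2 fold change 0.36, SE 0.09, limma FDR 0.011), but not with totals computed without the mtDNA-encoded mRNAs or with its highest transcript alone (largest limma FDR 0.13). The cytoplasmic partners of the protocadherins did not share a direction. CALML4, a calmodulin-like light chain of the complex, stood at 9.53, 9.01 and 9.57 TPM in the CON libraries, against 3.08, 1.77 and 2.96 TPM under CDCA, and was called lower (log2 fold change -1.55, SE 0.15, limma FDR 0.00027). The scaffold USH1C rose from 6.78 ± 0.550 to 9.03 ± 1.22 TPM (SD, n = 3, log2 fold change 0.36, limma FDR 0.028), and its FDR was over 0.05 in 8 of 13 alternatives. ANKS4B was at 1.24 ± 0.104 and 1.23 ± 0.144 TPM (SD, n = 3, 95% interval of the log2 fold change -0.28 to 0.26, limma FDR 0.97). The motor MYO7B was at 1.10, 0.86 and 1.18 TPM in the CON libraries, against 0.88, 0.85 and 0.59 TPM under CDCA and was not tested.

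**Figure D3:**
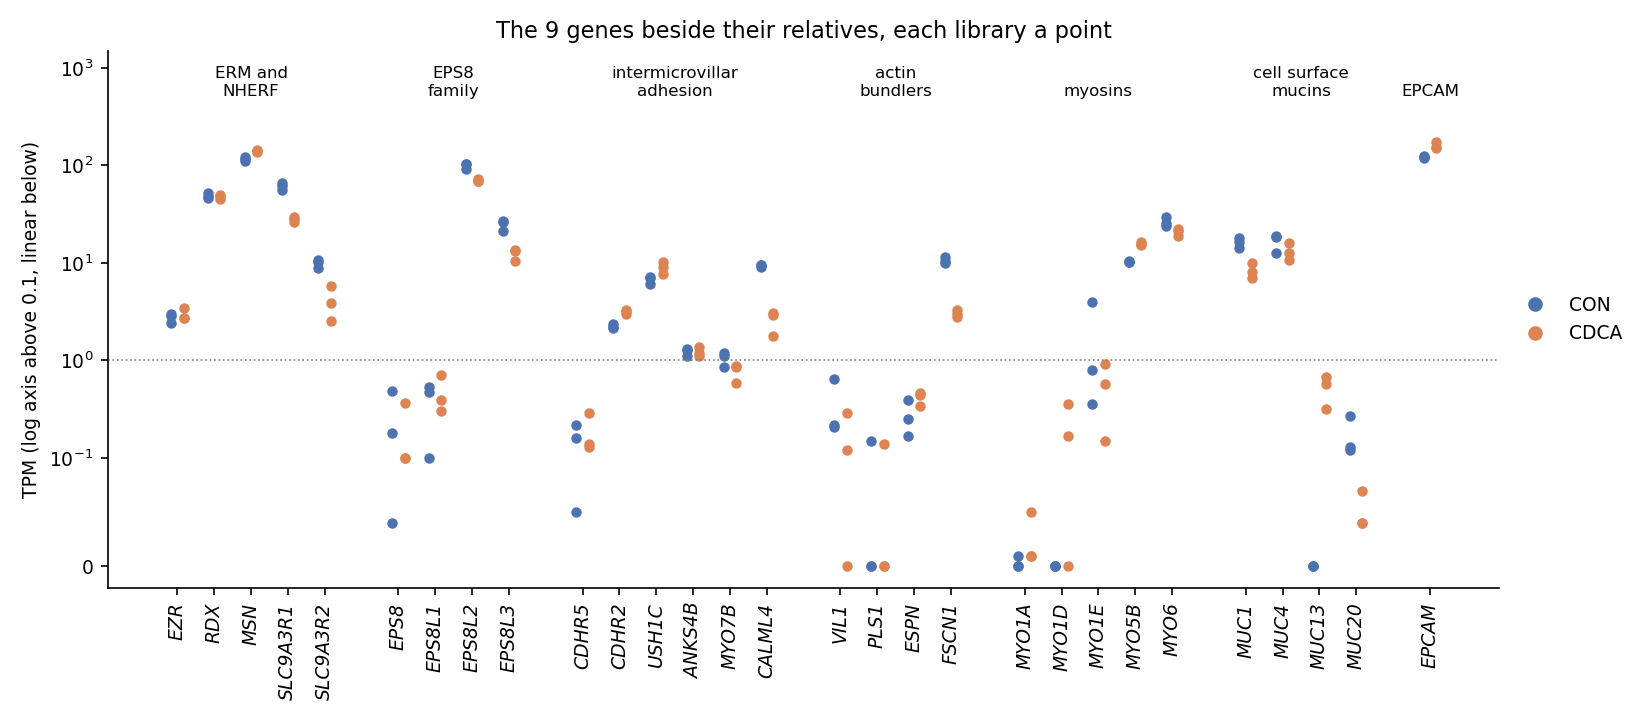
TPM (vertical axis, log scale above 0.1 and linear below) of the 9 genes and of their relatives in each CON and CDCA library, a point per library; the dotted line marks 1 TPM. EZR, EPS8, CDHR5, VIL1 and MYO1A lie below their most abundant relatives in both groups, and among the relatives SLC9A3R1, SLC9A3R2, EPS8L2, EPS8L3, CALML4, FSCN1 and MYO6 show separate groups with CDCA lower, and MSN, CDHR2, USH1C and MYO5B with CDCA higher. The share of all tested genes with separate groups was not computed, and 29.3% of them rose and 23.9% fell.

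Most of these relatives belong to a list of further genes of microvillus and brush border structure that held 35 listed gene IDs, of which 26 were tested. Of these, 6 rose, 9 fell and 11 did not pass the test, with a median log2 fold change of -0.05 against 0.05 over all tested genes. That median was -0.076 without CON replicate 3, -0.075 without CON replicate 1, -0.031 without CDCA replicate 2, -0.016 without CON replicate 2 and -0.0057 with the highest transcript alone, and with the same median ratio per library it was -0.13. With totals computed without the mtDNA-encoded mRNAs, 3 of 27 rose and 15 fell, with a median of -0.23, where 18.9% and 32.7% of all tested genes did. The 4 genes called lower were CALML4, FSCN1, SLC9A3R2 and SLC9A3R1, or 4 of 26 against 3.90% of all tested genes. FSCN1 among them is a bundler of filopodia, as said above, and the list was written with earlier results of these data known. The most abundant gene of the list, RAB11A, a GTPase of recycling endosomes, was at 292 ± 18.6 and 295 ± 4.65 TPM (SD, n = 3, 95% interval of the log2 fold change -0.10 to 0.14, limma FDR 0.80). Its direction turned in 4 alternatives and, with totals computed without the mtDNA-encoded mRNAs, its log2 fold change was -0.16 (limma FDR 0.048).

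The digestive enzymes and transporters of the brush border were mostly listed at low levels. Of 24 listed gene IDs, 20 had a mean under 1 TPM and 4 were tested, of which 1 rose and 1 fell; with totals computed without the mtDNA-encoded mRNAs, 1 of 5 rose and 2 fell, and with the listed TPM rescaled to 1000000, 1 of 8 rose and 3 fell. None fell by limma without CON replicate 1 or CON replicate 3, and 2 of 5 fell without CDCA replicate 1. The genes added under both scalings include SLC10A2, which is also the gene added without CDCA replicate 1. It stood at 1.37, 1.66 and 1.56 TPM in the CON libraries, against 0.33, 0.23 and 0.43 TPM under CDCA. SLC10A2 passed the filter only through its CON libraries, so its fall in these counts is a description. ANPEP (aminopeptidase N) stood at 0.60, 0.52 and 0.77 TPM in the CON libraries, against 1.95, 1.90 and 2.26 TPM under CDCA, without overlap (log2 fold change 0.90, SE 0.12, limma FDR 0.00097). ANPEP passed the filter only through its CDCA libraries, so its difference is a description. It was called higher in 2 of 12 alternatives, with a log2 fold change of 1.56 at a pseudocount of 0.1 TPM. GGT1, which splits glutathione at the cell surface, was at 1.68 ± 0.366 and 0.847 ± 0.219 TPM (SD, n = 3, log2 fold change -0.53, limma FDR 0.025), with an FDR over 0.05 in 5 of 12 alternatives, and passed the filter only through its CON libraries, so the 1 fallen gene of this list is a description too. The chloride channel CFTR, the most abundant of the list by the mean of all 6 libraries though below ANPEP in CDCA, was at 1.82 ± 0.419 and 1.52 ± 0.333 TPM (SD, n = 3, limma FDR 0.44).

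Mucins are built by adding GalNAc and further sugars to the protein in the Golgi apparatus. Of 34 listed gene IDs for O-glycosylation and mucin secretion, 15 were tested; 3 rose, 6 fell and 6 did not pass the test, with a median log2 fold change of -0.12. The median was -0.36 without CON replicate 1 and -0.21 without CDCA replicate 1. It was -0.30 with the highest transcript alone, -0.22 with the listed TPM rescaled to 1000000 and -0.20 with the same median ratio per library. With totals computed without the mtDNA-encoded mRNAs it was -0.29, and 1 rose and 8 fell, and with each library set to the same median ratio, 2 rose and 7 fell. The 3 tested genes with the largest changes belong to the family of GalNAc transferases, which holds enzymes that start the chain. The activity of these 3 was not measured. GALNT18 stood at 30.1, 29.9 and 29.1 TPM in the CON libraries, against 10.49, 9.62 and 11.1 TPM under CDCA, and was called lower (log2 fold change -1.43, SE 0.06, limma FDR 1.0e-05). GALNT12 was called lower too, from 5.46 ± 0.399 to 2.14 ± 0.165 TPM (SD, n = 3, log2 fold change -1.04, SE 0.09, limma FDR 0.00013), close enough to the limit that it was not called without CON replicate 2 (-0.99). GALNT14 fell from 2.99 ± 0.257 to 1.29 ± 0.266 TPM (SD, n = 3, log2 fold change -0.80, limma FDR 0.0017), and was called lower in 2 of 13 alternatives. The 3 genes that rose were GALNT3 of the same family (log2 fold change 0.27, limma FDR 0.048), GCNT1 (0.75, limma FDR 0.00070) and GCNT4 (0.36, limma FDR 0.0075).

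EPCAM binds other membrane proteins and is cut by surface proteases. Of 15 listed gene IDs for such partners and proteases, 10 were tested, of which 3 rose and 3 fell, with a median log2 fold change of -0.15; 1 rose and 6 fell with totals computed without the mtDNA-encoded mRNAs, and 1 rose and 5 fell with the same median ratio per library. Without CON replicate 2, CDCA replicate 2 or CDCA replicate 3, 1 gene rose in place of 3, in fits for which no share of all tested genes was computed. The membrane protease ST14 (matriptase), which can cleave EPCAM, stood at 61.1, 68.9 and 68.0 TPM in the CON libraries, against 32.5, 34.7 and 34.9 TPM under CDCA. ST14 fell (log2 fold change -0.93, SE 0.06, limma FDR 4.5e-05) and was called lower in 2 of 13 alternatives, both of them scalings. Its inhibitor SPINT1 fell from 45.9 ± 3.50 to 29.9 ± 2.01 TPM (SD, n = 3, log2 fold change -0.60, SE 0.07, limma FDR 0.00066). The sheddase ADAM17 rose from 1.25 ± 0.303 to 3.03 ± 0.821 TPM (SD, n = 3, log2 fold change 0.83, SE 0.19, limma FDR 0.0096), and was called higher in 4 of 13 alternatives, among them the fit without CDCA replicate 3 (1.00). The tetraspanin CD9, the most abundant of the list, was at 245 ± 12.3 and 229 ± 11.3 TPM (SD, n = 3, limma FDR 0.17); it fell with totals computed without the mtDNA-encoded mRNAs and with the same median ratio per library. CLDN7, the claudin that binds EPCAM, did not exceed 0.37 TPM in any library.

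Among 28 listed gene IDs of general epithelial identity, 17 were tested; 6 rose, 6 fell and 5 did not pass the test, with a median log2 fold change of -0.12, or -0.064 with the highest transcript alone and -0.062 with the listed TPM rescaled to 1000000. With totals computed without the mtDNA-encoded mRNAs, 4 of 18 rose and 8 fell (median -0.28), and with the same median ratio per library 4 of 17 rose and 7 fell (median -0.20). The claudin CLDN4 stood at 215, 223 and 237 TPM in the CON libraries, against 765, 792 and 863 TPM under CDCA, and was called higher (log2 fold change 1.84, SE 0.06, limma FDR 3.7e-06). KLF4, a transcription factor of differentiated surface epithelium, stood at 1.95, 7.47 and 8.56 TPM in the CON libraries, against 19.6, 15.5 and 16.1 TPM under CDCA. It was called higher (log2 fold change 1.54, SE 0.43, limma FDR 0.022), with CON replicate 1 far below the other CON libraries; without that replicate its log2 fold change was 1.00 and it was not called, and without CDCA replicate 1 or 3, or with no filter on low values, its FDR was over 0.05 (up to 0.064). The junction scaffold TJP3 went from 2.87, 2.51 and 2.49 TPM in CON to 0.26, 1.25 and 0.71 TPM in CDCA (log2 fold change -1.10, SE 0.21, limma FDR 0.0051), past the limit for a call except without CDCA replicate 1 (-0.88). TJP3 and OVOL2, which both count among the fallen genes, passed the filter only through their CON libraries, so their differences are descriptions. For TJP3 the log2 fold change was -1.89 at a pseudocount of 0.1 TPM.

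Transcription factors and enterocyte genes of the intestine were mostly near 0. Of 29 listed gene IDs, 21 had a mean under 1 TPM and 5 of these were at 0 in every library. Of the 8 tested, 1 rose and 3 fell, and with the listed TPM rescaled to 1000000, 2 of 11 rose and 3 fell. With totals computed without the mtDNA-encoded mRNAs and with the same median ratio per library, 1 of 8 rose and 4 fell. With the replicate block, the highest transcript alone or any library but CDCA replicate 3 left out, 2 fell. HNF4A, a regulator of enterocyte genes, stood at 6.03, 5.73 and 6.16 TPM in the CON libraries, against 2.30, 3.53 and 3.26 TPM under CDCA, and fell (log2 fold change -0.80, SE 0.13, limma FDR 0.0022). The apolipoproteins of chylomicrons moved in opposite directions. APOA4 stood at 1.86, 2.08 and 1.89 TPM in the CON libraries, against 6.74, 10.2 and 8.09 TPM under CDCA, and was called higher (log2 fold change 1.65, SE 0.14, limma FDR 0.00013). APOA1 fell from 2.35 ± 0.206 to 1.46 ± 0.215 TPM (SD, n = 3, log2 fold change -0.45, limma FDR 0.015), except with its highest transcript alone (limma FDR 0.17). LYZ, the lysozyme of Paneth cells and the most abundant of the list, was at 19.1 ± 0.795 and 17.1 ± 1.20 TPM (SD, n = 3, limma FDR 0.085); it fell with totals computed without the mtDNA-encoded mRNAs and with the same median ratio per library.

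**Figure D4:**
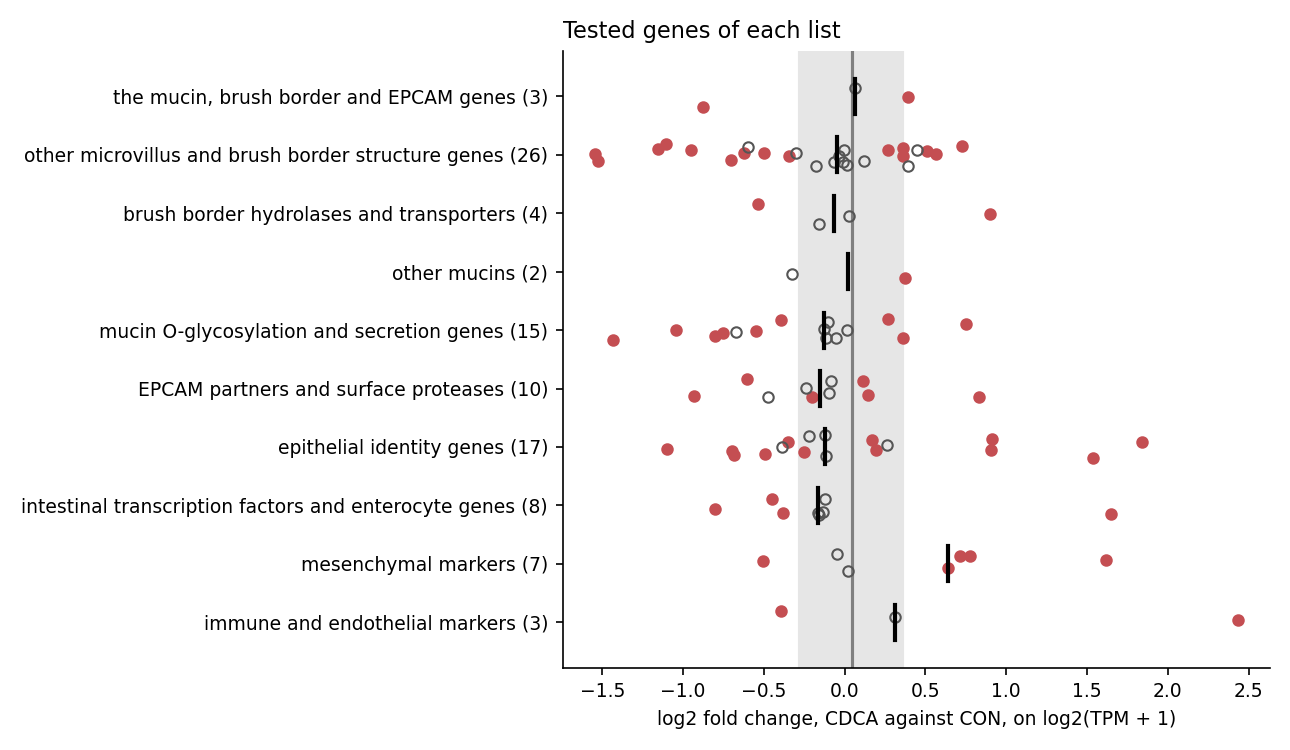
Log2 fold change of CDCA against CON on log2(TPM + 1) (horizontal axis) for each tested gene of each list, with the number tested in brackets; filled points had a limma FDR under 0.05, black bars mark list medians, and the grey line and band mark the median and quartiles of all 8708 tested genes. Every list with more than 3 tested genes holds filled points on either side of 0, and the medians of all lists but the 2 of other cell types lie between -0.16 and 0.06.

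Against its label as small intestinal epithelium, the line showed the general epithelial markers EPCAM, KRT8 (226 ± 9.98 TPM in CON, SD, n = 3) and KRT18 (65.6 ± 0.896 TPM in CON, SD, n = 3). CDH1 (E-cadherin) was listed at only 0.31 to 0.58 TPM over the 6 libraries, and KRT19 had no gene ID by that name. Of the enterocyte markers CDX2, HNF4A, FABP2, SI and ANPEP, CDX2 and FABP2 did not exceed 0.02 and 0.01 TPM, SI had a mean near 1 TPM, and HNF4A and ANPEP had the values given above. The goblet cell markers MUC2, ATOH1, SPDEF and TFF3 did not exceed 0.12 TPM in any library, with ATOH1 and TFF3 at 0 in all 6.

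Markers of other cell types were summed over each list. The 19 listed mesenchymal gene IDs added up to 3692 to 4010 TPM in CON and to 4083 to 4244 TPM in CDCA, most of it from VIM and S100A4, which cultured epithelial lines often express. VIM was at 1986 ± 109 and 1919 ± 31.3 TPM (SD, n = 3, limma FDR 0.43), and fell by limma among the 13 alternatives only with totals computed without the mtDNA-encoded mRNAs. Of 7 tested mesenchymal markers, 4 rose and 1 fell, with a median log2 fold change of 0.64, ZEB2 among them having passed the filter only through its CDCA libraries. Without CDCA replicate 1, 2 or 3, ZEB2 no longer passed the filter, and the median was 0.35, 0.33 or 0.32, with 3 of 6 risen. Without CON replicate 1, 2 or 3, all 7 genes stayed in the test and the median was 0.66, 0.63 or 0.63. The median was 0.29 with the highest transcript alone, where ZEB2 dropped out too, and 0.14 with the listed TPM rescaled to 1000000. The counts were 4 and 2 with totals computed without the mtDNA-encoded mRNAs. SNAI1, a repressor of epithelial genes, stood at 4.74, 5.15 and 4.02 TPM in the CON libraries, against 15.6, 18.1 and 15.2 TPM under CDCA, and was called higher (log2 fold change 1.62, SE 0.10, limma FDR 4.3e-05). ZEB2, a repressor of the same kind, was at 0.497 ± 0.0404 and 1.56 ± 0.147 TPM (SD, n = 3, log2 fold change 0.77, limma FDR 0.0016), and was called higher in 2 of 9 alternatives, with 1.47 at a pseudocount of 0.1 TPM, which for the reason given is a description. The matrix protein FN1 (fibronectin) rose from 560 ± 17.9 to 921 ± 19.0 TPM (SD, n = 3, log2 fold change 0.72, limma FDR 2.1e-05). The matrix gene SPARC fell from 150 ± 4.65 to 105 ± 1.62 TPM (SD, n = 3, log2 fold change -0.50, limma FDR 7.6e-05), and ZEB1 rose from 1.05 ± 0.0473 to 2.19 ± 0.0889 TPM (SD, n = 3, log2 fold change 0.64, limma FDR 0.0017). Of the 12 untested markers, LUM and TWIST2 were at 0 in every library. COL1A1, COL1A2 and CDH2 were highest, at up to 0.94, 0.80 and 0.88 TPM. PDGFRB stood at 0.02, 0.01 and 0.01 TPM in the CON libraries, against 0.08, 0.04 and 0.05 TPM under CDCA. Every CDCA library lay above every CON library for PDGFRB and CDH2, and below for COL1A2. Of the gene IDs above 0 and under 1 TPM, 9.72% and 5.92% did so. TWIST1 was not among the 19 listed gene IDs.

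The 17 immune and endothelial gene IDs added up to 4.08 to 6.07 TPM in CON and to 10.4 to 11.1 TPM in CDCA. Of 3 tested genes, 1 rose and 1 fell, and with the listed TPM rescaled to 1000000, 3 of 6 rose and 1 fell. The 1 that fell was PECAM1, which had an FDR over 0.05 without CON replicate 2, CON replicate 3, CDCA replicate 1 or CDCA replicate 2. Most of the difference was CD68, a lysosomal membrane protein that is also used as a macrophage marker, which stood at 0, 0 and 0.26 TPM in the CON libraries, against 5.33, 4.75 and 4.44 TPM under CDCA, and was called higher (limma FDR 2.8e-05). CD68 passed the filter only through its CDCA libraries, so this difference is a description. Of the 14 untested markers, CD3D and MS4A1 were at 0 in every library and PTPRC, carried by all leukocytes, did not exceed 0.01 TPM. ITGAM, CD8A and KDR were higher in every CDCA library than in every CON library, with means of 0.493, 0.140 and 0.430 TPM in CON and 1.24, 0.390 and 0.757 TPM in CDCA, or 3 of the 12 markers above 0 where 9.72% of the 13841 gene IDs above 0 and under 1 TPM did so. CD3E overlapped between the groups, at up to 1.32 TPM. The endothelial markers CDH5 and VWF overlapped as well, at up to 0.17 and 0.09 TPM. PECAM1 fell from 1.92 ± 0.242 to 1.22 ± 0.106 TPM (SD, n = 3, log2 fold change -0.39, limma FDR 0.025), with an FDR over 0.05 in 6 of 13 alternatives. CD14 was at 0.997 ± 0.162 and 1.48 ± 0.191 TPM (SD, n = 3, limma FDR 0.071). Whether RNA of the genes in these 2 lists had a part in the differences of EPCAM and MUC1 was not tested. In such bulk libraries fewer cells with a transcript and less of it per cell cannot be told apart.

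MUC1 had the largest log2 fold change of the 3 tested genes. The tested genes with a symbol whose log2(TPM + 1) over the 6 libraries was most like that of MUC1 were NR2F6 (Pearson's r 0.996, log2 fold change -0.47), PPP1R9B (r 0.996, log2 fold change -0.51) and RBM17 (r 0.995, log2 fold change -0.33). These r values are descriptions over 6 libraries that share the difference between the groups.

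**Figure D5:**
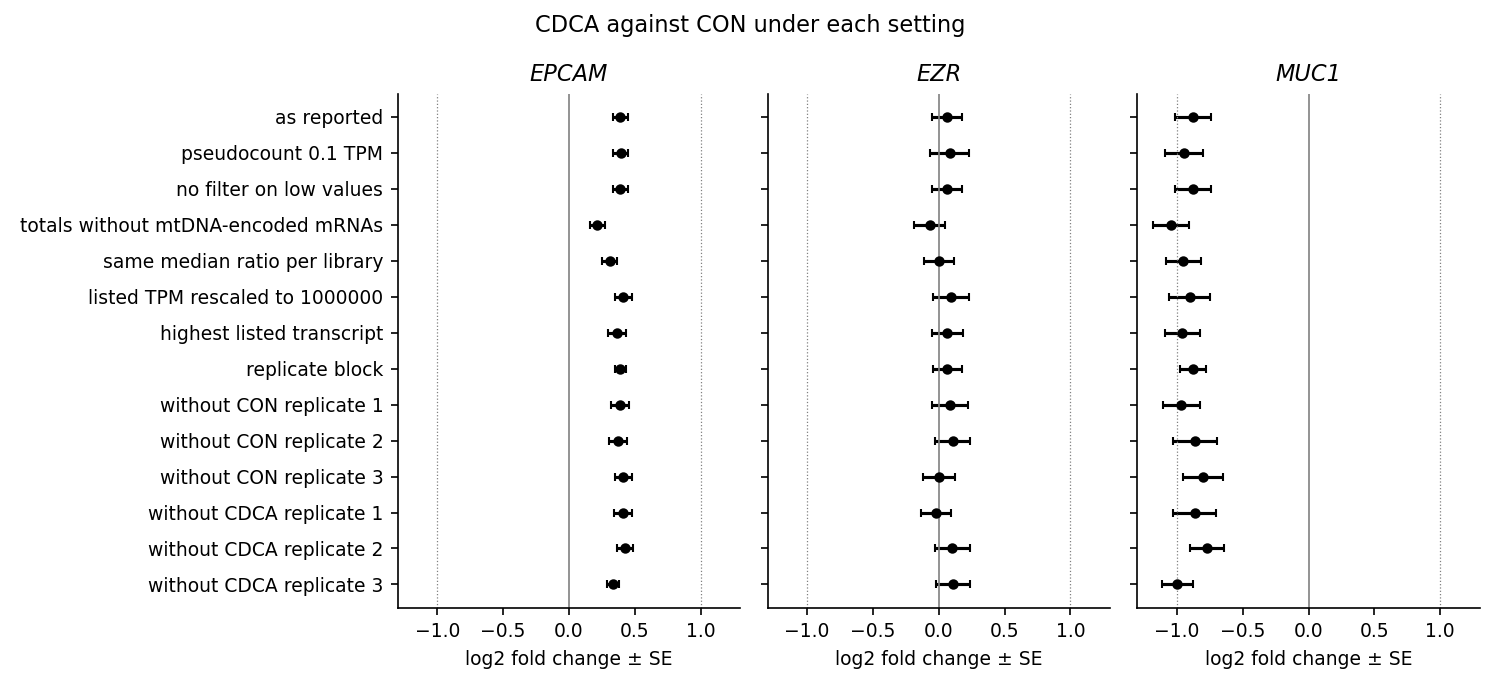
Log2 fold change of CDCA against CON with its SE (horizontal axes) for EPCAM, EZR and MUC1 as reported and under each of 13 alternatives (vertical axis); the dotted lines mark the limits for a call at -1 and 1. EPCAM stayed between 0.22 and 0.43 and MUC1 between -1.05 and -0.77, whereas EZR lay on either side of 0.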

How the data were processed

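RNA-seq of 6 IPEC-J2 libraries was analysed. According to the study's methods, RSEM gave the TPM that the authors deposited, in 63041 rows of 31908 pig gene IDs, without counts. The submitters' processing notes name Bowtie 0.12.2 and a mouse build, with no role given; the gene IDs are those of the pig. The authors' edgeR test needs counts and was not used here.

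TPM were summed per gene ID. Symbols came from the deposited names, then from descriptions and reference tables, and 18077 IDs had one. In R 4.3.3, limma 3.58.1, with a trend on the variance, compared CDCA with CON on log2(TPM + 1) for IDs with a mean of at least 1 TPM, adjusted over all of them by Benjamini-Hochberg. The steps were tested on simulated data. No set test was made. The 9 genes and the lists were chosen with earlier results of these data known. Besides the 9 genes, the text names in each list the 3 tested genes with the largest log2 fold change and the most abundant gene, the cell type markers, and the 3 genes most like MUC1; relatives and any other gene were picked after their values were seen.

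Alternatives were a pseudocount of 0.1 TPM, no filter, totals without mtDNA-encoded mRNAs, the same median ratio per library, listed TPM rescaled to 1000000, the highest transcript in place of the sum, the replicate number as a block, and each library left out. Sequences of the genes were not used here, and 1 gene was left out of the lists. In addition, some names on the lists had no gene ID, and the counts cover the listed gene IDs only. Thus 35 gene IDs stood for 38 names of microvillus and brush border structure, and 34 for 38 of mucin O-glycosylation and secretion.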

Additional observations from a re-analysis of the deposited data

How the results depend on the processing

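Over the 13 alternatives, the log2 fold change of EPCAM stayed between 0.22 and 0.43 (limma FDR 0.0014 to 0.020) and that of MUC1 between -1.05 and -0.77 (limma FDR 0.00084 to 0.0090), each on the same side of an FDR of 0.05. EZR, which did not pass the test in any of them (limma FDR 0.53 to 1.00), turned to -0.068 with totals computed without the mtDNA-encoded mRNAs. With each library left out in turn, EZR ranged from -0.021 to 0.11, with values below 0 (-2.6e-05 and -0.021) without CON replicate 3 or CDCA replicate 1. The count of the 9 genes called lower went from 0 to 1, MUC1, with totals computed without the mtDNA-encoded mRNAs, and the count called higher was 0 under all alternatives. With no filter on low values, 3 of the 9 genes had an FDR under 0.05 in place of 2, the added one being MUC13, listed at 0 in every CON library. In that fit 11.5% of all gene IDs rose and 9.11% fell. Of all genes, those called higher went from 306 to 509 with a pseudocount of 0.1 TPM and to 523 with the listed TPM rescaled to 1000000, which tested 10947 genes, and those called lower from 340 to 505 and 481. With the replicate block, EPCAM had an FDR of 0.0027 and MUC1 one of 0.0031, and 309 genes were called higher and 343 lower. Same-numbered libraries did not deviate together from their group means (r -0.04, -0.09 and -0.05 over the tested genes), so the numbers were not taken as pairs, and no library correlated best with its own number. Depth is unknown for TPM, so a value at 0 or a few hundredths of a TPM gives no bound.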
